A study of Mus musculus with 6 samples.

Results

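The genes described here are 38 genes of fatty acid oxidation, ketone body metabolism and the response to PPAR-alpha, taken by name from 20145 named genes on a mouse expression array. All 38 had at least 1 probe on the array, and all 38 were well above background on all 6 arrays. The list was drawn up with results of the same comparison in view, so the differences of its members between genotypes are given as a description, with no p-value. The study profiled primary mammary epithelial cells, obtained by dissociating mammary glands of female mice aged 8 weeks on a 129sv/C57Bl6 background. Of the 6 samples, 3 were wild type and 3 were Plk2 -/- (null), a genotype that lacks the polo-like kinase Plk2, and the comparison asks how expression differs without it. The labels do not say which part of Plk2 was deleted, or whether a sample was a single animal or a pool, so the spread between samples may be partly technical.

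Fatty acids are burned in mitochondria by a repeating cycle, the beta-oxidation spiral. Long chains first enter as carnitine esters, each turn of the spiral then removes a piece as acetyl-CoA, and the electrons released pass through electron transfer flavoprotein to the respiratory chain. Peroxisomes run a parallel pathway for very long and branched chains, and acetyl-CoA can be converted to ketone bodies or recovered from them. The nuclear receptors PPAR-alpha and PPAR-delta, with the coactivator PGC-1-alpha, switch on many of these genes in liver, heart and muscle. In the mammary gland the better known side of lipid metabolism is synthesis of milk fat.

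Levels are log2 processed signals with the 75th percentile of each array set to 0, and each difference is null minus wild type on that scale, with the standard error (SE) of a limma fit over 24609 entries. Levels of different probes are not comparable with each other. The Plk2 probe gave processed signals of 1160 to 1472 in wild type and 1.87 to 2.44, not well above background, in null samples. The first principal component (50.4% of the variance) placed the wild-type arrays at -58.8 to -35.4 and the null arrays at 25.7 to 75.1. Null sample 3 stood apart on the second (23.5%), at 74.0, with the other arrays between -26.5 and 2.88. On the single slide, row 1 held the wild-type arrays and row 2 the null arrays, so slide position and genotype cannot be told apart. Over all entries 139 passed an adjusted p of 0.05 (56 higher, 83 lower in null). That split was 179 and 167 with median centring and 250 and 125 with spike-in scaling, under which the median over all entries was 0.31 in place of 0.03.

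Most of the genes were higher in null cells, by modest amounts. A positive difference was found for 34 of 38 (89.5%), against 52.9% of all entries, and the median difference was 0.45, against 0.03 over all entries. For 27 of the 38 (71.1%), every null array lay above every wild-type array, where 19.6% of all entries did so. The margin was narrow in some of the 27, such as Acads, Acot1 and Cpt2. For 4, Cpt1c, Acox3, Ppard and Ppargc1a, every null array lay below, against 12% of all entries. In the other 7 genes the groups overlapped. An adjusted p of 0.05 (limma) was passed by 2 members, Pdk4 and Eci2, where 0.565% of all entries passed (0.228% higher and 0.337% lower in null). The unadjusted 0.05 was passed by 25 members, against 23% of entries. These shares come from the comparison that was in view when the list was made, and nothing is read from them.

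**Figure D1:**
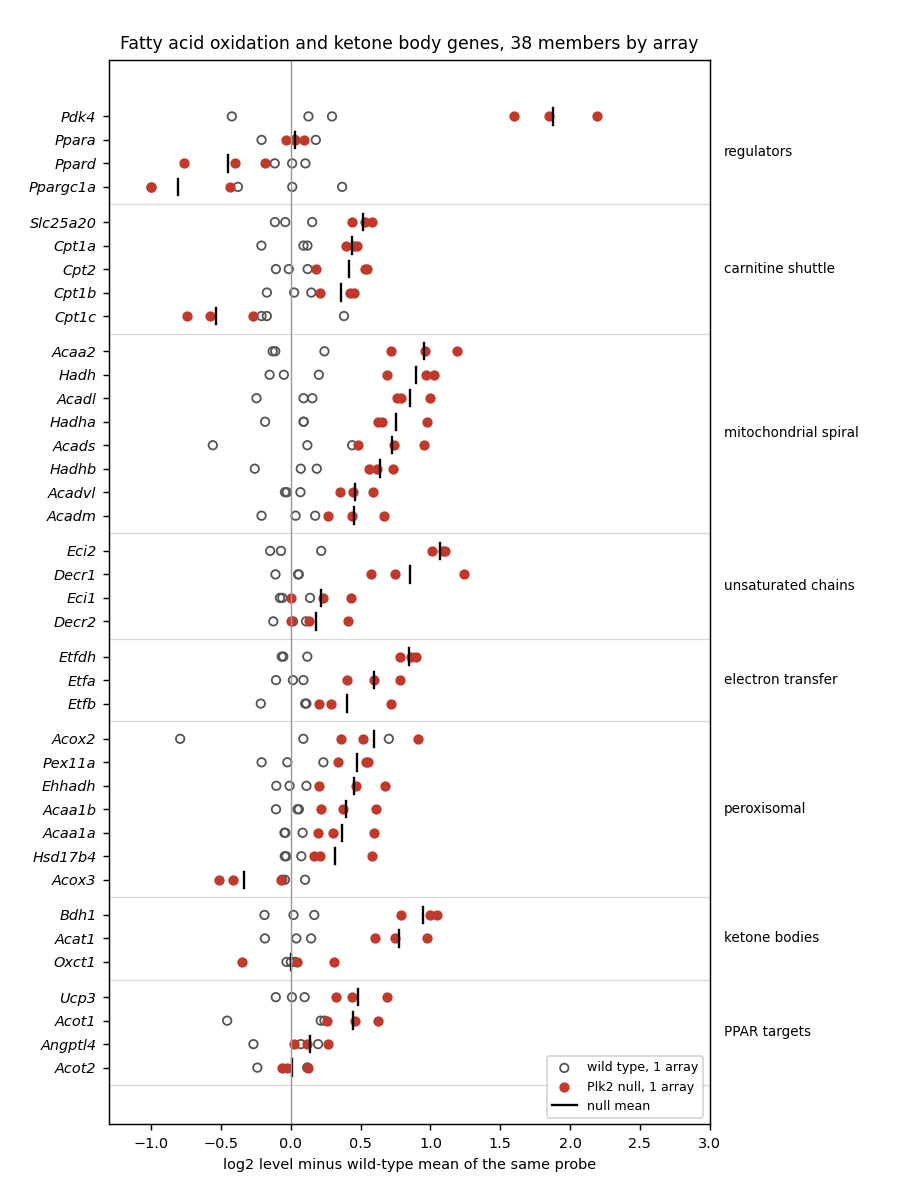
Log2 level of each of the 38 genes on each array minus the wild-type mean of the same probe, with genes grouped by role. Open circles are wild-type arrays, filled circles null arrays and the bar the null mean. All 3 null circles lie to the right of all 3 wild-type circles for 27 genes and to the left for 4.

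The median of the members on each null array, measured from the wild-type means, was 0.35, 0.51 and 0.58 in null samples 1, 2 and 3, and -0.06, 0.00 and 0.10 on the wild-type arrays. All 3 null medians lay above the wild-type medians, that of sample 1 by the least. Among the 27 higher genes, null sample 1 gave the lowest of the 3 null values in 21. The highest came from null sample 2 in 12 and from null sample 3 in 14. The median SD of the members was 0.17 in wild type and 0.20 in null samples (n = 3 each), against 0.19 and 0.26 over all entries. Without null sample 3 the median difference was 0.41, and 32 of the 38 differences were positive.

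**Figure D2:**
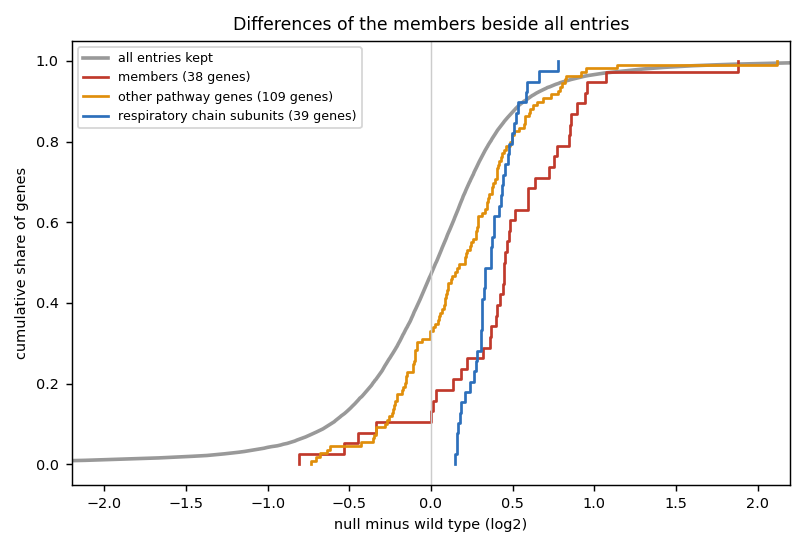
Cumulative share of genes against the difference, null minus wild type (log2), for all 24609 entries kept (grey), the 38 members, 109 other genes of the same pathways and 39 respiratory chain subunits. The curve of the members lies to the right of the curve of all entries over most of its length, with medians of 0.45 and 0.03.

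The regulators differed in direction. Pdk4 (NM_013743), a kinase that switches off pyruvate dehydrogenase and so limits the entry of glucose carbon into the mitochondrial cycle, had the largest difference of the list. Its processed signal was 909.2, 1285 and 1641 in the wild-type samples and 5200.3, 6130.1 and 3434 in the null samples. The lowest null value was more than the highest wild-type value. On the log2 scale Pdk4 went from 2.24 ± 0.38 to 4.12 ± 0.30 (SD, n = 3 each), a difference of 1.88 (SE 0.25) or 3.68-fold, higher than 99.2% of all entries.

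The receptor genes did not follow it. Ppara, which encodes the receptor PPAR-alpha, stood at -2.00, -1.85 and -2.24 in wild type and at -2.06, -1.94 and -2.01 in null samples. The groups overlapped, and the sign of the difference of 0.03 (SE 0.15) turned in 3 of 15 alternatives. Ppard, for PPAR-delta, was at 2.99, 2.77 and 2.89 in wild type and at 2.70, 2.48 and 2.12 in null samples, a difference of -0.45 (SE 0.19). Ppargc1a, the gene of PGC-1-alpha, was at -2.46, -2.10 and -2.85 in wild type and at -2.90, -3.47 and -3.47 in null samples. All null arrays were lower for both genes, by a narrow margin on null sample 1. The difference of Ppargc1a was -0.81 (SE 0.25), or 1.75-fold lower in null cells. Its size depended on the processing: it was -0.32 with normexp correction and -0.30 with the deposited table's values, where Cpt1c and Ppard were lower than Ppargc1a. A further probe for it did not rise well above background.

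**Figure D3:**
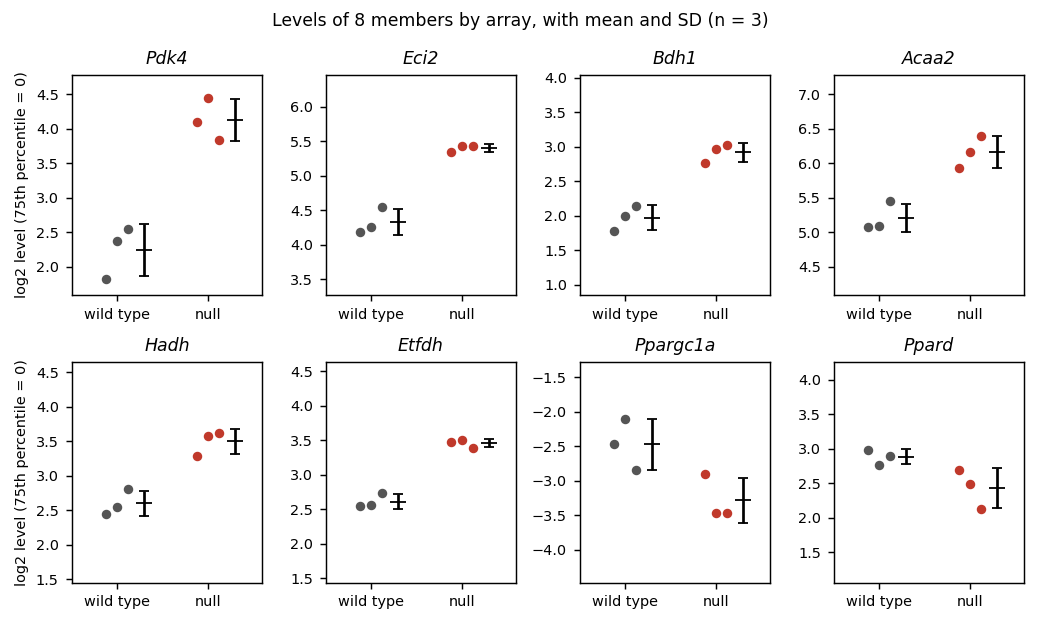
Log2 level (75th percentile of each array = 0) of 8 members on each array, with the mean and SD (n = 3) beside the points of each group. The vertical axes span the same range around different midpoints. Pdk4, Eci2, Bdh1, Acaa2, Hadh and Etfdh lie higher on all null arrays, and Ppargc1a and Ppard lie lower.

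The carnitine shuttle carries long chains across the inner mitochondrial membrane. Cpt1a, which encodes the rate-setting outer membrane enzyme in most tissues, was at 2.88, 3.19 and 3.21 in wild type and at 3.49, 3.55 and 3.57 in null samples, a difference of 0.44 (SE 0.15). The null values lay close together and above all wild-type values. The carrier gene Slc25a20 differed by 0.52 (SE 0.14) and Cpt2, the inner membrane partner, by 0.42 (SE 0.16). Cpt1b, the muscle form of the outer enzyme, differed by 0.36 (SE 0.16; 0.19 with normexp correction), also with groups apart. Cpt1c, a form found mainly in neurons, went the other way, with -0.10, -0.69 and -0.65 in wild type and -1.06, -1.23 and -0.75 in null samples. Each of these Cpt genes had a further probe, with differences of 0.24 for Cpt1a, 0.39 for Cpt1b, 0.31 for Cpt2 and -0.34 for Cpt1c. All had the same sign as the probe described. On these further probes the groups were apart for Cpt1b and overlapped for Cpt1a, Cpt2 and Cpt1c.

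All 8 genes of the mitochondrial spiral were higher on every null array, with folds of 1.37 to 1.94 and a median difference of 0.74. Acaa2, the thiolase of the last step, showed the widest difference among them, from 5.07, 5.09 and 5.45 in wild type to 5.92, 6.16 and 6.40 in null samples (0.96, SE 0.19). Hadh, the hydroxyacyl-CoA dehydrogenase for shorter chains, was at 2.45, 2.55 and 2.81 in wild type and at 3.29, 3.57 and 3.63 in null samples (0.89, SE 0.17). In both genes the gap between the groups was wider than the spread within them. Among the acyl-CoA dehydrogenases, which start each turn for chains of different length, Acadl differed by 0.85 (SE 0.17), Acads by 0.73 (SE 0.28), Acadvl by 0.46 (SE 0.14) and Acadm by 0.46 (SE 0.18). Acads had the widest wild-type spread of these, with 0.72, 0.39 and -0.28. Its lowest null value, 0.76, was only just above the highest of these. In Acadm the lowest null value was 4.08 and the highest wild-type value 3.99.

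Hadha and Hadhb encode the alpha and beta subunits of the mitochondrial trifunctional protein, which runs the later steps for long chains. Hadha was at 1.81, 2.09 and 2.09 in wild type and at 2.62, 2.97 and 2.65 in null samples, a difference of 0.75 (SE 0.17). Hadhb was at 4.25, 4.58 and 4.70 in wild type and at 5.08, 5.13 and 5.25 in null samples, a difference of 0.64 (SE 0.17). Both subunit genes were higher in all null samples by similar amounts, and the difference between them was not tested. The genes are neighbours on chromosome 5 and point away from each other, with 272 bases between their annotated start sites. That interval is shown because it lies upstream of both genes. It is given on the forward strand, reading towards Hadhb, at chr5:30154981-30155252 of GRCm38.p6 (RefSeq), and the capitals mark the 228 bases that lie within 250 bases upstream of both start sites.
Hadha and Hadhb: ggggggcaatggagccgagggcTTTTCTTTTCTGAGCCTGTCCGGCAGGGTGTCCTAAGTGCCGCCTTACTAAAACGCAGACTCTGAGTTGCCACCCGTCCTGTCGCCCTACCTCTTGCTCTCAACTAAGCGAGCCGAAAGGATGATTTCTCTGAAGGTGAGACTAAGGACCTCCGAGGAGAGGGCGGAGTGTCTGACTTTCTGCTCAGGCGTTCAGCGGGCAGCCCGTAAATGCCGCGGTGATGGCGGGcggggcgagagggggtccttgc

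Enzymes for unsaturated chains move or reduce double bonds so that the spiral can go on. Eci2, an enoyl-CoA delta isomerase (NM_011868), was at 4.19, 4.26 and 4.55 in wild type and at 5.34, 5.44 and 5.43 in null samples. The null values agreed closely and lay well above the wild-type values. The difference was 1.07 (SE 0.15), or 2.10-fold, the second largest of the list. Decr1, the mitochondrial dienoyl-CoA reductase, was at 4.51, 4.67 and 4.67 in wild type and at 5.19, 5.36 and 5.86 in null samples (0.86, SE 0.20). A further Decr1 probe gave 0.46, also with every null array higher. The related Eci1 and Decr2 differed by 0.22 (SE 0.17) and 0.18 (SE 0.16), and their groups overlapped.

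Electron transfer flavoprotein takes the electrons of the acyl-CoA dehydrogenases. The 3 genes for its subunits and for the enzyme that accepts its electrons were higher on every null array. Etfdh, the membrane oxidoreductase that hands them to ubiquinone, was at 2.55, 2.56 and 2.73 in wild type and at 3.47, 3.51 and 3.39 in null samples, a difference of 0.85 (SE 0.14). The subunit genes Etfa and Etfb differed by 0.59 (SE 0.16) and 0.40 (SE 0.19). A further Etfa probe gave 0.54.

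Of the ketone body genes, Bdh1 and Acat1 were higher and Oxct1 was not. Bdh1 encodes the dehydrogenase that interconverts acetoacetate and 3-hydroxybutyrate. Its level was 1.79, 1.99 and 2.14 in wild type and 2.77, 2.97 and 3.02 in null samples (0.94, SE 0.16; 1.92-fold). Its 2 further probes gave 0.58 and 1.66, so the sign was shared by all 3 probes and the size was not. Acat1, the mitochondrial acetoacetyl-CoA thiolase, was at 2.25, 2.02 and 2.36 in wild type and at 2.82, 3.18 and 2.95 in null samples (0.77, SE 0.17). Oxct1, which activates acetoacetate for use as fuel, was at 4.30, 4.26 and 4.33 in wild type and at 3.95, 4.60 and 4.34 in null samples. The null values spread to both sides of the wild-type values, and the SE of the Oxct1 difference was 0.19.

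Peroxisomal genes were higher by smaller amounts, with a median difference of 0.40 over 7 genes. Pex11a, which promotes division of peroxisomes and is a known PPAR-alpha target, differed by 0.48 (SE 0.17). The bifunctional enzyme genes Ehhadh and Hsd17b4 differed by 0.45 (SE 0.17; 0.20 with normexp correction) and 0.32 (SE 0.16), and the thiolase genes Acaa1a and Acaa1b by 0.37 (SE 0.16) and 0.40 (SE 0.16). In these 5 genes every null array lay above the wild-type arrays. Acaa1a and Acaa1b are close paralogs, so signal may be shared between their probes. Acox3, an oxidase for branched chains, was lower, at 1.40, 1.56 and 1.42 in wild type and 1.05, 0.95 and 1.39 in null samples (-0.34, SE 0.17). Null sample 3 lay only just below the wild-type arrays, and a further Acox3 probe gave -0.14 with overlapping groups. The related oxidase Acox2 differed by 0.60 (SE 0.38) with overlapping groups and a wild-type SD of 0.75.

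The remaining 4 members are genes that PPAR agonists are known to raise. Ucp3, a mitochondrial carrier of muscle and brown fat, was at 2.01, 2.12 and 2.21 in wild type and at 2.44, 2.80 and 2.55 in null samples (0.48, SE 0.16). A further Ucp3 probe stayed near background on all arrays. Acot1, a cytosolic acyl-CoA thioesterase, differed by 0.45 (SE 0.23), with a low wild-type sample 2 (4.41 against 5.10 and 5.08). Its mitochondrial paralog and neighbour on chromosome 12, Acot2, differed by 0.01 (SE 0.16), and signals of such close paralogs may be shared. Angptl4, a secreted inhibitor of lipoprotein lipase, was at 7.71, 8.05 and 8.18 in wild type and at 8.10, 8.00 and 8.25 in null samples. The groups of Angptl4 overlapped, with a difference of 0.14 (SE 0.17).

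The promoters of the members were searched for the letters bound by PPAR and its partner RXR, which recognise repeats of a short hexamer. RefSeq windows of 300 bases, 250 of them before the start site, were found for 32 of the 38 genes (34 windows). The hexamer AGGTCA, on either strand, was in 5 of the 34 windows (14.7%), those of Acadm, Acadvl, Cpt1a, Cpt1c and Ucp3, against 16.3% of all 32851 windows. The direct repeat of AGGTCA, 2 copies with 1 base N between them, was in none, against 0.0396% of all windows. The same repeat of the looser AGGNCA was in none either, against 0.381%. No match says only that these letters are not in this window. The 250 bases before the start site are shown for Pdk4, the gene with the largest difference, for Cpt1a, the rate-setting step, and for Ucp3, the only member with 2 hexamers in its window. They lie in GRCm38.p6 at chr6:5496279-5496528 on the reverse strand for Pdk4, at chr19:3323051-3323300 on the forward strand for Cpt1a and at chr7:100472741-100472990 on the forward strand for Ucp3. Capitals mark the hexamers, which begin at -94 in Cpt1a, where the letters are on the opposite strand, and at -149 and -44 in Ucp3, counted from the start site.
Pdk4: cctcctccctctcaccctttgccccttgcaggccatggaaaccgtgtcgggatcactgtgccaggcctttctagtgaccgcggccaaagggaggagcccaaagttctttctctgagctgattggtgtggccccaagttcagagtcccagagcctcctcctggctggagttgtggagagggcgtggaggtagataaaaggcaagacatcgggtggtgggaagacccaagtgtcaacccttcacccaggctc
Cpt1a: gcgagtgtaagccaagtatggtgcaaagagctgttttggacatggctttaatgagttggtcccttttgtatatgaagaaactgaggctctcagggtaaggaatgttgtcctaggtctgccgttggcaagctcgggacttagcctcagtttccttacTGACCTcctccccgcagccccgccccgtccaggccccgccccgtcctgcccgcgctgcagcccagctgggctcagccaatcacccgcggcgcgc
Ucp3: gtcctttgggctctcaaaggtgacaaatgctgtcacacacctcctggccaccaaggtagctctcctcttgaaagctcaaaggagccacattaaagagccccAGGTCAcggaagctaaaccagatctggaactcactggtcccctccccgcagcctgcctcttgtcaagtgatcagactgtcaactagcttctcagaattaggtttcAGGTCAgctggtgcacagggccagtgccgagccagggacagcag

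Other genes of the same pathways were taken from the same fit. These lists were also drawn up with earlier results of these data known, so their counts and p-values are no independent support. Of 109 such genes kept, 73 had a positive difference and the median was 0.21. None of these 109 passed an adjusted p of 0.05 (limma), while 27 were higher and 3 lower at an unadjusted 0.05, against 13.5% and 9.54% of all entries. The groups were apart with null higher in 32, against 19.6% of all entries, and with null lower in 6, against 12%. The counts of higher genes include Abcd2 and Slc16a7, which were kept only through the null samples and so had to differ. Among the peroxisomal genes 17 of 22 were positive (median 0.33), among other mitochondrial enzymes 15 of 22 (0.23), and among genes of uptake and activation 14 of 19 (0.35). Genes around pyruvate dehydrogenase were positive in 11 of 13 (0.27). Partners and targets of PPAR were near the level of all entries, with 14 of 26 positive and a median of 0.06, and of 7 other ketone body genes 2 were positive (-0.10).

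The members of these lists with the smallest p are given with their limma adjusted p. Acad9, an acyl-CoA dehydrogenase that also assembles complex I, differed by 1.14 (SE 0.22; adjusted p = 0.069), Echdc3 by 0.95 (SE 0.23; 0.093) and Hsd17b10, an enzyme of the spiral and of branched amino acid breakdown, by 0.57 (SE 0.14; 0.097). The fatty acid binding protein genes Fabp3 and Fabp5 differed by 0.82 (SE 0.14; adjusted p = 0.0547) and 0.78 (SE 0.21; 0.108), and the transporter gene Slc27a1 by 0.82 (SE 0.24; 0.12). Plin5, which coats lipid droplets at mitochondria, differed by 0.79 (SE 0.14; adjusted p = 0.0593). The corepressor gene Nrip1 differed by -0.68 (SE 0.15; adjusted p = 0.0856) and Ucp1 by -0.73 (SE 0.26; 0.165).

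In the pyruvate group Pdk1, a relative of Pdk4, was at -0.47, -0.56 and -0.73 in wild type and at 0.24, 0.36 and 0.05 in null samples, a difference of 0.80 (SE 0.15; limma adjusted p = 0.0682). The arrays of the groups did not overlap. Pdk2 differed by 0.43 (SE 0.19; adjusted p = 0.237) and Pdha1, a subunit of the dehydrogenase itself, by 0.38 (SE 0.13; 0.16). The peroxisomal genes Hacl1 and Pecr differed by 0.65 (SE 0.16; limma adjusted p = 0.0961) and 0.60 (SE 0.15; 0.097). Abcd2, a peroxisomal transporter, and Slc16a7, a transporter of monocarboxylates such as ketone bodies, did not pass the background criterion in any wild-type sample. On group means they were at least 1.14-fold and at least 1.69-fold higher in null samples. This bound sets the null mean against the lowest passing signal of each wild-type array. It does not hold array by array. Abcd2 in null samples 1 and 2 and Slc16a7 in null sample 2 lay below the lowest passing signal of wild-type sample 2. No p-value is given for them. Slc16a6 and Aacs differed by -0.63 (SE 0.23; limma adjusted p = 0.175) and -0.28 (SE 0.15; 0.317).

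**Figure D4:**
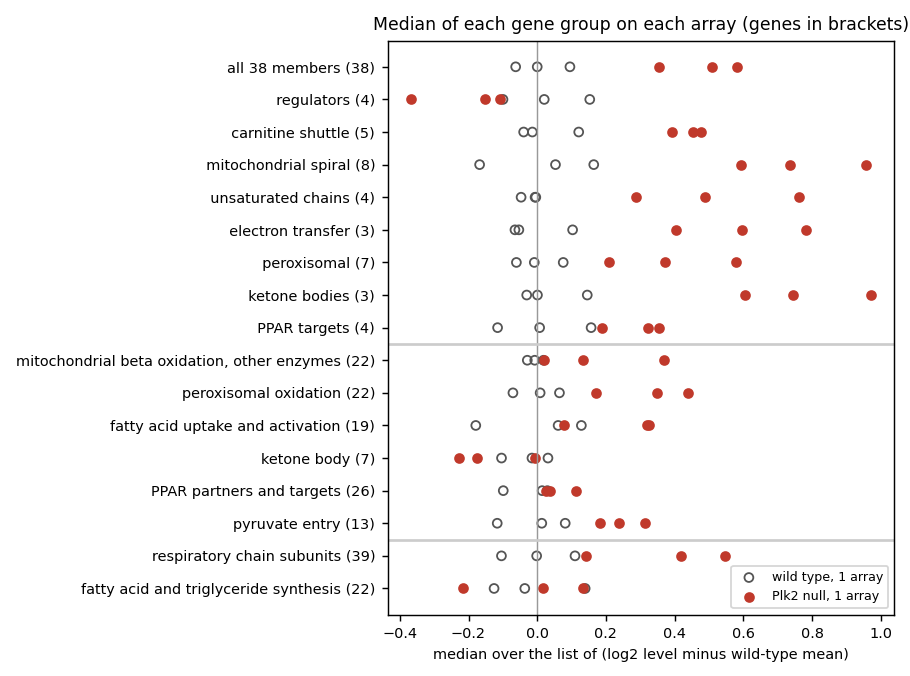
Median over each gene group of the log2 level minus the wild-type mean, on each array, with the number of genes in brackets. Open circles are wild-type and filled circles null arrays. Null medians of the mitochondrial spiral lie at 0.59 to 0.96, while those of PPAR partners and targets lie at 0.02 to 0.11.

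Nuclear-encoded subunits of the respiratory chain, which receive the electrons of fatty acid oxidation, were compared because they share the mitochondrion. All 39 were positive, from 0.14 to 0.78 (median 0.37), and the groups were apart in 20, against 19.6% of all entries. On the null arrays their median lay at 0.14, 0.42 and 0.55. It was lowest in null sample 1 and highest in null sample 3, the order seen in the median of the fatty acid oxidation genes. Genes of fatty acid and triglyceride synthesis had a median of -0.01, with 10 of 22 positive. Whether the fatty acid oxidation genes differ from these lists was not tested.

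Marker genes of several cell types also differed between the genotypes, and in bulk RNA fewer cells of a type and less RNA per cell cannot be told apart. All 10 epithelial markers were well above background on all 6 arrays. Of these, 6 were higher and 4 lower in null samples. The groups were apart for Krt14 (0.92) and Cldn7 (0.34), higher in null samples, and for Cldn4 (-0.71), lower. Their summed level, in units of each array's 75th percentile, was 2147 to 2206 in wild type and 2085 to 2681 in null samples. Such a sum is weighted towards the brightest probes, here Krt18 and Krt19. Of 9 adipocyte markers kept, 6 were higher and 3 lower in null samples, and no group was apart. The adipocyte sum was 21.5 to 101.2 in wild type and 36.6 to 74.9 in null samples, and Lep did not pass the background criterion. Of 8 skeletal muscle markers kept 2 were higher, with sums of 2.07 to 3.00 and 1.67 to 2.43, and Ckm and Mylpf did not pass the background criterion.

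Larger differences were seen in markers of dividing cells and of lymphocytes. All 8 markers of dividing cells kept were higher in null samples, with sums of 8.11 to 12.5 in wild type and 29.7 to 96.4 in null samples. Cdk1 and Aurkb of that list were not kept. All 9 lymphocyte markers were lower, with sums of 18.1 to 32.2 and 2.12 to 8.20. Macrophage markers (9 of 9), endothelial markers (10 of 10) and fibroblast markers (10 of 10) had negative differences, with medians of -0.52, -0.46 and -0.45. The macrophage sum was 101.5 to 150.1 in wild type and 61.4 to 99.9 in null samples, the endothelial sum 173 to 244.5 and 112.1 to 203.3, and the fibroblast sum 1831 to 2037 and 1229 to 1740. The part of these differences in those of the fatty acid oxidation genes was not tested.

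The calls of Pdk4 and Eci2 depended on which arrays were used. Both were called without null sample 3, together with Etfdh, and neither was called when any other array was left out. The difference of Pdk4 then ranged from 1.67, with wild-type sample 1 left out, to 2.03, with wild-type sample 3 left out. That of Eci2 ranged from 0.996 to 1.18 over the same arrays. Across 15 alternatives both were called in 7 and neither in 8, and the sign of both differences held in all 15. Because every null array lay above every wild-type array for both genes, leaving out 1 array could not turn the sign. Nor could the other filters, the probe summary or the replicate block. Each of the 2 genes had 1 probe and each replicate number held both genotypes, so those settings left both differences unchanged. Among members that were not called, 1 array moved some differences by a larger factor. Without wild-type sample 3 that of Acads was 0.45 and that of Acox2 0.20, without wild-type sample 2 that of Acot1 was 0.22, and without wild-type sample 1 that of Cpt1c was -0.34. Without null sample 3 those of Etfb, Hsd17b4 and Ppard were 0.24, 0.19 and -0.29.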

How the data were processed

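RNA of 6 samples, 3 per genotype, was labelled with Cy3 and hybridised to 1-colour Agilent arrays (grid build mm9) and read with Feature Extraction 11.0.1.1, per the file headers. The intensity used is the deposited processed signal, a linear value from which background had been removed, not normalized between arrays, per the file headers. The deposited median spot and background intensities served an alternative, as did the authors' deposited table of intensities that share 1 distribution across arrays.

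Log2 signals were centred on each array's 75th percentile over gene spots. Control spots and 1119 outlier gene spots were left out; no spot was saturated. Spots of a probe were averaged. Probe accessions were matched to RefSeq transcripts (GRCm38.p6 table, names only): 26582 of 55681 probes matched. Probes that passed the background criterion (well above background) on 3 or more of 6 arrays were kept, with the brightest per gene, giving 24609 entries (40 missing values). Differences were fitted with lmFit and eBayes of limma 3.58.1 (R 4.3.3), 2-sided, with Benjamini-Hochberg adjustment over all entries at 0.05. The steps were checked on simulated data. Of the 38 genes, 9 had 10 further kept probes, of which 9 had the same sign as the probe used; the exception was Ppara, near 0.

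Members and lists were chosen with earlier results of these data known. All measured members are described; of the other pathway lists the 3 genes with the smallest p in each are named. Of the listed genes, 1 is not reported here and stays out of the list counts. Alternatives were other background correction, scaling, filters, probe summary, the deposited table, the replicate block and each array left out. No pairing by replicate number was seen: deviations of same-numbered samples correlated at -0.12, 0.04 and -0.02. With 3 samples per group these values cannot exclude a pairing. The number of arrays limits the precision.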

Additional observations from a re-analysis of the deposited data

How the results depend on the processing

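The median difference of the members was 0.40 to 0.49 with quantile normalization, normexp background correction (offset 50) or median centring, 0.73 with spike-in scaling and 0.34 with the deposited table's values, and 0.41 to 0.53 with 1 array left out. Relative to the median of all entries the spike-in value was 0.42, as in the reported setting. That match was fixed in advance, since both settings subtract 1 value per array from the same signals. The number of members called, 2, became 12 with normexp, 11 with the deposited table, 5 with spike-in scaling, 5 with probes well above background on all 6 arrays, 0 with quantile normalization, 0 without a filter and 0 to 3 with 1 array left out. With the replicate block, 0 members and 8 entries were called. Entries called, 139, became 1239 with normexp, 770 with the deposited table, 346 with median centring, 375 with spike-in scaling, 380 with the stricter filter, 31 without a filter and 7 to 705 with 1 array left out. Of the other pathway genes, 10 were called with normexp, 7 with the deposited table, 1 with median centring, 2 with spike-in scaling, 2 with the stricter filter and 0 to 5 with 1 array left out. Their median was 0.14 with normexp, 0.49 with spike-in scaling, 0.12 with the deposited table and 0.14 to 0.24 with 1 array left out. The number of members higher on every null array, a count added after the data were seen, was 23 to 30 over 15 alternatives. Leaving out 1 array makes this criterion easier to meet, and those alternatives gave 27 to 30. The sign held in every alternative for 34 members and turned in some for Ppara, Oxct1, Angptl4 and Acot2. The other filters and the replicate block left the member differences unchanged, so they could not turn a sign. For the 31 members whose groups were apart, leaving out 1 array could not turn it either. The cause of these shifts was not tested. All members were well above background, but some dim ones still moved with normexp. Ppargc1a went from -0.81 to -0.32, Ehhadh from 0.45 to 0.20 and Cpt1b from 0.36 to 0.19. That setting also used the median spot intensities and an offset of 50, so it does not isolate the background correction.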
